A study of Mus musculus with 14 samples.

Results

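Death receptors are cell surface proteins of the TNF receptor superfamily that carry a death domain, and 8 genes of the pathway they start were chosen by name from the 24091 genes of the deposited counts. They encode the ligands Fasl (Fas ligand) and Tnfsf10 (TRAIL), the receptors Fas, Tnfrsf10b (the mouse TRAIL death receptor) and Tnfrsf1a (TNF receptor 1), the adaptor Fadd, the initiator caspase Casp8 and its regulator Cflar (c-FLIP). All 8 had enough reads to be tested. The counts came from T cells sorted from the spleen, 200000 cells per mouse, of mice modelling chronic myelogenous leukemia (CML). One group, CP CML (chronic phase), held 8 Mir142+/+BCR-ABL mice, and the other, BC CML (blast crisis), held 6 Mir142-/-BCR-ABL mice that lack the microRNA gene Mir142. Every mouse of both groups was a C57Bl/6j animal of either sex, aged 6 to 10 weeks, that carried the SCL-tTA/BCR-ABL transgenes, in which the Scl control elements drive the tetracycline transactivator in hematopoietic stem and progenitor cells, and every mouse had been off tetracycline for 3 weeks to induce BCR-ABL. The Mir142 deletion is in the germline and so is not limited to T cells, and no group without BCR-ABL was part of this experiment. Each mouse gave 1 library of paired reads. The mouse names differ in prefix between the groups, and what the prefix stands for is not given, so anything it marks cannot be told apart from genotype.

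When Fas ligand or TRAIL binds its receptor, or when the TNF receptor 1 complex moves into the cytosol, the adaptor FADD recruits procaspase-8 through their shared death effector domains. Caspase-8 molecules brought together in this way activate each other and cleave executioner caspases, and in many cells also BID, which links the pathway to mitochondria. c-FLIP is built like caspase-8 but has no protease activity of its own, so it takes caspase-8's place in the complex, and where caspase-8 is held back, RIPK1, RIPK3 and MLKL can start necroptosis. In T cells Fas and its ligand remove activated cells at the end of a response, and Fas ligand and TRAIL are also used by effector T cells and NK cells to kill targets. The study asked why T cells are lost in BC CML mice and measured their spontaneous apoptosis, and the comparison of the groups asks which transcripts of this route differed.

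The total was between 15703702 and 19914531 reads in CP CML and between 16145537 and 19399720 in BC CML. Mir142 had between 302 and 650 reads in each CP CML mouse and 0 in all 6 BC CML mice. Levels are given as CPM, counts per 1000000, that is a gene's reads scaled to the size of its library after TMM normalization, and a log2 fold change is BC CML over CP CML. A gene was called when its p from the quasi-likelihood test of edgeR, adjusted over 12248 genes by the Benjamini-Hochberg method, was below 0.05. This comparison was broad, with 65.2% of all tested genes called, 32.6% higher and 32.7% lower in BC CML, and 36.9% of genes without overlap between the groups.

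The mature strands made from the deleted gene are shown because their seeds, bases 2 to 8 and in capitals here, decide which 3′UTRs could pair with them. They are the RefSeq sequences of the build GRCm38.p6, on the plus strand at chr11:87756867-87756887 and chr11:87756903-87756925, and their seeds differ.
mmu-miR-142a-5p: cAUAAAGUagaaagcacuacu
mmu-miR-142a-3p: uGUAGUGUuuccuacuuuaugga

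In the longest 3′UTRs of the GENCODE vM21 annotation, 7 of the 8 genes held no match to either seed, and Tnfrsf10b held both matches found. Its 3′UTR of 1845 bases, on the plus strand of chromosome 14, has an 8-base match to miR-142a-5p at its bases 1294 to 1301 (chr14:69783860-69783867 of mm10) and a 7-base match to miR-142a-3p at its bases 567 to 573 (chr14:69783133-69783139). Both are shown with their surroundings, the match in capitals.
Tnfrsf10b, match to miR-142a-5p: ctccccacctgACTTTATAtgcctcactcc
Tnfrsf10b, match to miR-142a-3p: ctactgctcagCACTACAcagctgcacgg

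Among 11509 tested genes with a 3′UTR, 5.22% held the 8-base match to miR-142a-5p and 23.5% held any match to it of 7 bases or more. For miR-142a-3p any match was present in 12.1%. The 3′UTRs searched ranged from 448 bases in Fas to 4962 in Cflar, with a median over the 8 genes of 1366 bases, against 1187 over all tested genes. A match is a description of letters and not a measured site.

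Of the 8 genes, 7 were called, 5 higher in BC CML (Fasl, Tnfsf10, Tnfrsf1a, Casp8 and Cflar) and 2 lower (Tnfrsf10b and Fadd), and Fas was not called. The share of all tested genes called was 65.2%, so the count alone is no result about these genes. The sizes differed more: the ligands Fasl and Tnfsf10 and the receptor Tnfrsf1a rose between 2.52- and 2.94-fold, and the other 5 differed by less. The median log2 fold change of the 8 was 0.20 and the median size of change 0.43, beside -0.0083 and 0.28 over all tested genes. The 8 genes were chosen with earlier results of these data known, so this contrast is a description and not a test. In 4 of the 8 (Fasl, Tnfsf10, Tnfrsf1a and Casp8) every BC CML mouse lay above every CP CML mouse, where 36.9% of all tested genes had groups without overlap, and in the other 4 the groups overlapped.

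**Figure D1:**
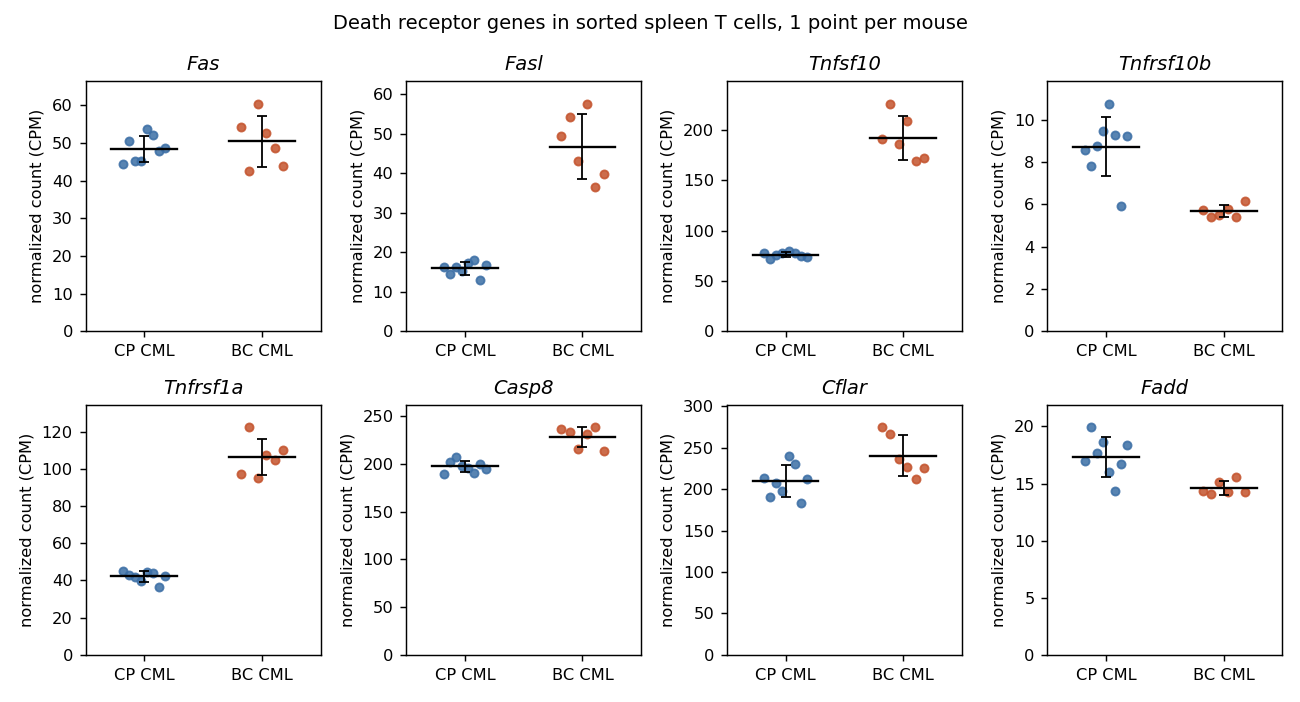
Normalized count in CPM (vertical axes, each from 0) of the 8 genes in CP CML (8 mice) and BC CML (6 mice). Each point is a mouse, the long line the mean and the bar 1 SD. The groups are apart in Fasl, Tnfsf10, Tnfrsf1a and Casp8, and they overlap in Fas, Cflar, Fadd and Tnfrsf10b, in the last through 1 low CP CML mouse.

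Fasl encodes Fas ligand, which engages Fas on a neighbouring cell or on the same cell. The gene spans chr1:161780692-161788495 of mm10, on the minus strand. Its lowest, median and highest levels were 12.9, 16.2 and 18.05 CPM in CP CML and 36.4, 46.2 and 57.6 CPM in BC CML. The lowest BC CML mouse stood above the highest CP CML mouse. The means were 15.9 ± 1.62 (SD, n = 8) and 46.7 ± 8.32 (SD, n = 6) CPM, a log2 fold change of 1.55 (SE 0.10), or 2.94-fold, with an edgeR adjusted p of 4.59e-10. The call was lost with the NK cell marker score as a covariate (0.35, adjusted p 0.706). The change was larger than that of 93.7% of all tested genes. With between 211 and 334 reads per CP CML mouse and between 672 and 1101 per BC CML mouse, Fasl was well counted in every library.

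Tnfsf10 encodes TRAIL, a ligand made by NK cells, activated T cells and monocytes. It spans chr3:27317077-27342232 on the plus strand. The CP CML mice lay close together, at 72.2, 76.7 and 80.2 CPM (lowest, median, highest). The BC CML mice spread more widely, at 169, 188 and 226 CPM, and none came near the CP CML range. From means of 76.3 ± 2.64 (SD, n = 8) and 192 ± 22.0 (SD, n = 6) CPM, Tnfsf10 was 2.52-fold higher in BC CML (log2 fold change 1.33, SE 0.06, edgeR adjusted p 1.55e-12). With the NK cell marker score as a covariate the difference was 0.65 and did not pass (adjusted p 0.145).

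Tnfrsf1a encodes TNF receptor 1, the receptor through which TNF can signal either NF-κB activation or death. It spans chr6:125349723-125362483 on the plus strand. Its levels were 36.7, 42.8 and 45.3 CPM in CP CML and 95.3, 106 and 122 CPM in BC CML (lowest, median, highest), again without overlap. The mean rose from 42.2 ± 2.80 (SD, n = 8) to 106 ± 9.76 (SD, n = 6) CPM. This was 2.52-fold, a log2 fold change of 1.33 (SE 0.06) with an edgeR adjusted p of 1.69e-12.

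The start regions of these 3 genes are shown because the genes changed most and all in the same direction. Each is the RefSeq window of the build GRCm38.p6 from 250 bases before to 50 bases after the annotated start, read on the gene's strand, at chr1:161788446-161788745 (minus) for Fasl, chr3:27316827-27317126 (plus) for Tnfsf10 and chr6:125349473-125349772 (plus) for Tnfrsf1a. Capitals mark matches to 4 motifs searched on both strands. The GC box was searched as GGGCGG. The GAS-type element, bound by STAT proteins, was searched as TTCNNNGAA. The TATA box was searched as TATAAA, and the interferon-type element as 2 copies of GAAA with any 2 bases between them.
Fasl: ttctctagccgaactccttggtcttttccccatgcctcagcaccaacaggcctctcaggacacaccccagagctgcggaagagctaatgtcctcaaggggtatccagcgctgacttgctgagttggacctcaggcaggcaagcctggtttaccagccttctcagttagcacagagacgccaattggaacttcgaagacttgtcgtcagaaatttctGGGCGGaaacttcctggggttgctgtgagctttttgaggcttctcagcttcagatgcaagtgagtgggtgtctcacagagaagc
Tnfsf10: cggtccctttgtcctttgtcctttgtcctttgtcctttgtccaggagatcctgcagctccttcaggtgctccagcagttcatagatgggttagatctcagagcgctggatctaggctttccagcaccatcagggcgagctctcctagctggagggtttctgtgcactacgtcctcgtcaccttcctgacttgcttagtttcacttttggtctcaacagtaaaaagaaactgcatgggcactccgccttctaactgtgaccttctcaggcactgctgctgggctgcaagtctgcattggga
Tnfrsf1a: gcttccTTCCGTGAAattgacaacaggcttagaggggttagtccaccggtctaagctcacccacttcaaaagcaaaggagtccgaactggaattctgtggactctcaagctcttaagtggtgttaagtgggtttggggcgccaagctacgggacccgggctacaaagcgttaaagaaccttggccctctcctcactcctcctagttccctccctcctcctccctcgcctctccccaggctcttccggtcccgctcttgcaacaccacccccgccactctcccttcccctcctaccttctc

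Fasl held a GC box beginning 34 bases before the start, Tnfrsf1a a GAS-type match 244 bases before it, and the Tnfsf10 window none of the 4 motifs. A window was given for 7 of the 8 genes, Tnfrsf10b being the exception. Over 32851 such windows the GC box was present in 35.7%, the GAS-type match in 8.3%, the interferon-type match in 3.44% and the TATA box in 13.6%. Among the 7 the GC box was found in Fas, Fasl and Fadd, the GAS-type match in Fas and Tnfrsf1a, and the interferon-type match and the TATA box in Cflar. The 3 genes that rose most shared none of these matches. The Tnfsf10 window had 52.3% G and C and the Fasl window 53.3%, near the median of all windows of 52.7%, and the Fadd window had the highest of the 7 at 60.3%.

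Fas, the receptor of Fas ligand, did not pass the test. The gene, on the plus strand, spans chr19:34290659-34327770. Its lowest, median and highest levels were 44.3, 48.3 and 53.7 CPM in CP CML and 42.6, 50.7 and 60.4 CPM in BC CML. The BC CML mice covered the whole CP CML range and went beyond it at both ends. The means were 48.4 ± 3.43 (SD, n = 8) and 50.4 ± 6.72 (SD, n = 6) CPM, and the log2 difference was 0.06 (SE 0.07, edgeR adjusted p 0.484). Its 95% interval ran from -0.08 to 0.20. Fas was thus measured at between 684 and 1151 reads per BC CML mouse without a detectable difference, while the mRNA of its ligand was 2.94-fold higher in the same libraries.

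Tnfrsf10b, the receptor through which TRAIL signals death in the mouse, fell. The gene, on the plus strand, spans chr14:69767472-69784411. It was at 5.94, 9.01 and 10.8 CPM in CP CML and at 5.42, 5.61 and 6.17 CPM in BC CML (lowest, median, highest). The 6 BC CML mice lay within a narrow band that only CP CML replicate 7, the lowest of its group, entered. The means were 8.73 ± 1.41 (SD, n = 8) and 5.67 ± 0.29 (SD, n = 6) CPM, a log2 fold change of -0.62 (SE 0.11), or 0.65-fold, with an edgeR adjusted p of 8.22e-05. With the NK cell marker score as a covariate it was -0.84 with a larger error (SE 0.52) and not called (adjusted p 0.471). With the naive T cell score it was -1.02 (SE 0.32) and called (adjusted p 0.0366). This was the least abundant of the 8 genes, with between 87 and 189 reads per mouse, so its counting error was the largest. The ligand and its receptor moved in opposite directions.

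Fadd, the adaptor that these receptors use, directly or through other adaptors, to reach caspase-8, was slightly lower. The gene spans chr7:144578323-144582436 on the minus strand. Its levels were 14.3, 17.3 and 19.9 CPM in CP CML and 14.1, 14.3 and 15.6 CPM in BC CML (lowest, median, highest). Of the 6 BC CML mice, 4 lay below every CP CML mouse, the nearest of them only just, at 14.31 against 14.32 CPM. The ranges overlapped through CP CML replicate 6 alone, the lowest of its group. The log2 fold change was -0.25 (SE 0.07), or 0.84-fold, from 17.3 ± 1.73 (SD, n = 8) to 14.6 ± 0.607 (SD, n = 6) CPM, with an edgeR adjusted p of 0.0048. With the myeloid score as a covariate the call was lost (edgeR adjusted p 0.133), where the difference was -0.23 with a larger error (SE 0.12). It was also lost with the naive T cell (-0.050, adjusted p 0.901) and effector or memory scores (-0.14, adjusted p 0.612). With the NK cell score the difference changed sign (0.067, adjusted p 0.946). The annotation holds an antisense gene, Faddos, over Fadd, and since the strand setting of the counting is not given in the sources used here, reads of the pair cannot be told apart. The annotation also places Gm27818 over Fas and Gm37760 over Casp8, on the same strand, and reads falling on both genes may have been left uncounted.

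Casp8, the initiator caspase of this route, rose a little. The gene spans chr1:58795374-58847503 on the plus strand. In CP CML it was at 189.9, 197 and 208 CPM and in BC CML at 214, 232 and 238 CPM (lowest, median, highest), so that the groups did not overlap. The difference was small, 1.16-fold, with means of 197 ± 5.91 (SD, n = 8) and 228 ± 10.6 (SD, n = 6) CPM (log2 fold change 0.21, SE 0.03, edgeR adjusted p 4.5e-05). A change of this size or more was found in most tested genes, since Casp8 exceeded only 40.1% of them. With marker scores as a covariate the call held for the myeloid score and was lost for the naive T cell (0.11, edgeR adjusted p 0.506), effector or memory (0.10, adjusted p 0.433) and NK cell (0.21, adjusted p 0.598) scores. With the NK cell score the difference stayed at 0.21 and its error grew (SE 0.17).

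Cflar encodes c-FLIP, of which long and short isoforms exist that a count per gene does not separate. It lies beside Casp8 on the same strand of chromosome 1, at chr1:58711491-58759209, with 36164 bases between the end of Cflar and the start of Casp8. Its levels were 183, 209.9 and 240.3 CPM in CP CML and 212, 232 and 274 CPM in BC CML (lowest, median, highest). The ranges overlapped, with the lowest mouse in CP CML and the highest in BC CML. The means were 209.4 ± 19.3 (SD, n = 8) and 240.4 ± 24.9 (SD, n = 6) CPM, 1.15-fold (log2 fold change 0.20, SE 0.07). The edgeR adjusted p was 0.0152, the weakest call of the 7, and with 1 mouse left out at a time it rose to at most 0.0455. The call was lost with the myeloid marker score as a covariate, where the difference was 0.23 with a larger error (SE 0.12, adjusted p 0.132), and the difference changed sign with the naive T cell (-0.085), effector or memory (-0.086) and NK cell (-0.27) scores, with which it did not pass either.

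The balance of Cflar to Casp8 did not separate the groups. Per kilobase of gene length, the Cflar level was 0.337 ± 0.0373 (SD, n = 8) of the Casp8 level in CP CML, between 0.290 and 0.388, and 0.335 ± 0.0329 (SD, n = 6) in BC CML, between 0.282 and 0.369. The mean log2 ratios differed by -0.0097, against an SD among mice of 0.16 in CP CML and 0.15 in BC CML. Other ratios within a mouse, computed from the same levels, did separate the groups. Fasl over Fas had a mean of 0.305 ± 0.0313 (SD, n = 8) in CP CML, against 0.872 ± 0.196 (SD, n = 6) in BC CML. Tnfsf10 over Tnfrsf10b was 9.0 ± 1.60 (SD, n = 8) and 34.2 ± 4.71 (SD, n = 6), and Casp8 over Fadd was 11.4 ± 1.03 (SD, n = 8) and 15.6 ± 0.919 (SD, n = 6). These ratios were not tested, since they repeat the changes of their members.

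Compared per kilobase, Casp8 had the highest level of the 8 in both groups, at 68.5 ± 2.05 (SD, n = 8) CPM per kilobase in CP CML, against 79.2 ± 3.66 (SD, n = 6) in BC CML. In CP CML it was followed by Fas (27.1 ± 1.91), Cflar (23.1 ± 2.12), Tnfrsf1a (19.7 ± 1.31), Tnfsf10 (15.2 ± 0.527), Fasl (8.24 ± 0.84), Fadd (6.03 ± 0.604) and Tnfrsf10b (1.73 ± 0.279 CPM per kilobase). The neighbours Fas and Cflar, Cflar and Tnfrsf1a, and Fasl and Fadd overlapped in their ranges. In BC CML the order of levels changed, with Tnfrsf1a (49.5 ± 4.55) and Tnfsf10 (38.3 ± 4.40) now next after Casp8. They came before Fas (28.2 ± 3.75), Cflar (26.5 ± 2.74), Fasl (24.2 ± 4.31), Fadd (5.09 ± 0.212) and Tnfrsf10b (1.12 ± 0.0576 CPM per kilobase). Here the ranges of Tnfrsf1a and Tnfsf10, of Fas and Cflar, and of Cflar and Fasl overlapped. Fasl moved from beside Fadd to beside Cflar. The lengths are those deposited with the counts, so these levels depend on the transcripts they stand for.

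**Figure D2:**
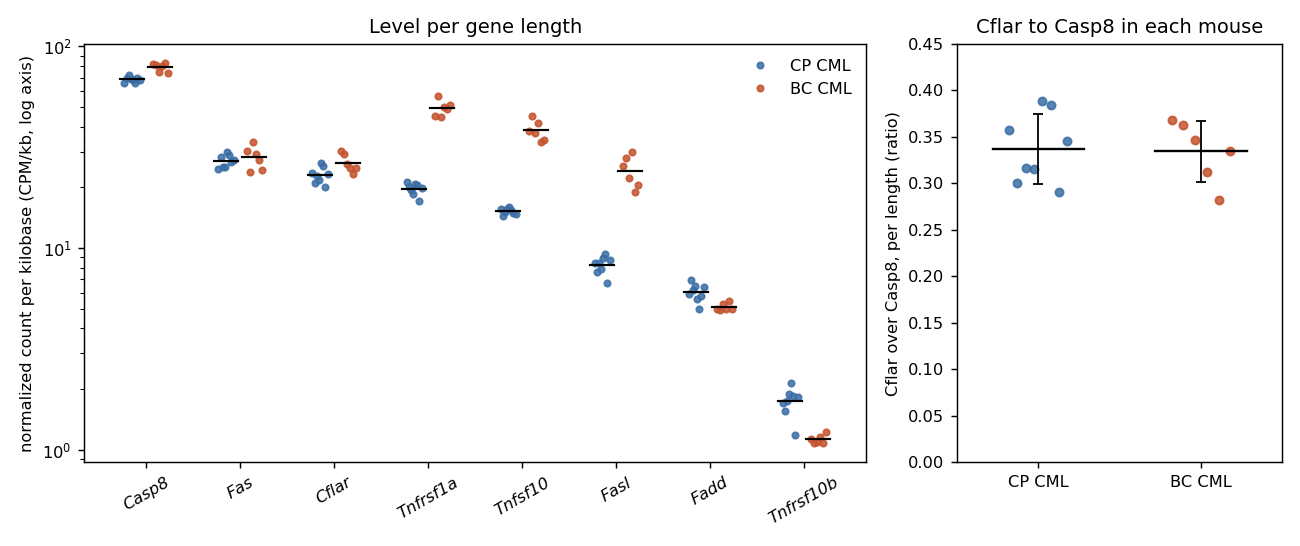
Left, level of the 8 genes in CPM per kilobase of gene length (log axis), ordered by the CP CML mean, with each mouse as a point and the mean as a line. Right, ratio of Cflar to Casp8 per length in each mouse, with mean and 1 SD: Casp8 is highest in both groups, Tnfrsf1a, Tnfsf10 and Fasl move up in BC CML, and the ratio lies at 0.337 in CP CML and 0.335 in BC CML.

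The mice differed among themselves by amounts that depended on the gene. In CP CML the coefficient of variation ran from 2.99% for Casp8 to 16.1% for Tnfrsf10b, and in BC CML from 4.16% for Fadd to 17.8% for Fasl. CP CML replicate 7 was the lowest of its group in 4 of the 8 genes (Fasl, Tnfrsf10b, Tnfrsf1a and Cflar), and CP CML replicate 5 the highest in 4 (Fas, Tnfsf10, Tnfrsf10b and Cflar). BC CML replicate 5 was the lowest of its group in 4 (Fasl, Tnfsf10, Tnfrsf10b and Cflar). With any 1 of the 14 mice left out, 7 of the 8 genes were called.

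Each gene was also matched to the tested gene whose log2 CPM profile over the 14 mice, centred on its mean, lay closest by root mean square difference. The nearest profiles were Sh3bp2 for Fasl (difference 0.136), Apol7e for Tnfsf10 (0.087), Rgs3 for Tnfrsf1a (0.071), Ikbke for Tnfrsf10b (0.135), Ap1ar for Fas (0.089), Cutc for Fadd (0.054), Agpat3 for Casp8 (0.049) and Atxn2 for Cflar (0.053). These are the nearest of 12248 profiles in data where most genes differed between the groups, and none of the 8 was the nearest profile of another.

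The rest of the pathway was read from 5 lists of 77 genes, of which 68 were tested. Of these, 20 were called higher and 24 lower in BC CML, 64.7% of the 68 beside 65.2% of all tested genes, and their median log2 fold change was -0.0022. The share called and the median were close to those of all tested genes.

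Among the other ligands and receptors, 5 of 13 tested genes were higher, 2 lower and 6 not called, with a median log2 fold change of 0.17. Tnf, the ligand of TNF receptor 1, rose from 13.9 ± 4.09 (SD, n = 8) to 31.2 ± 3.24 (SD, n = 6) CPM without overlap (log2 fold change 1.16, SE 0.17, edgeR adjusted p 2.2e-05). Tnfrsf1b, the second TNF receptor, which has no death domain, was at 138 ± 7.95 (SD, n = 8) and 138 ± 5.31 (SD, n = 6) CPM, with an edgeR adjusted p of 0.949. Ltbr, the lymphotoxin β receptor, and Tnfrsf21, the death receptor DR6, rose by 1.44 (SE 0.21) and 1.14 (SE 0.17) on the log2 scale. Ltbr was scarce in both groups, at 0.995 CPM in CP CML and 2.69 in BC CML. Tnfrsf25, the death receptor DR3 of T cells, fell by 0.50 (SE 0.10) on the log2 scale, from 30.9 to 21.8 CPM. Tnfrsf22, a mouse decoy receptor for TRAIL, fell by 0.49 (SE 0.06), from 33.1 to 23.5 CPM. Its neighbour and close relative Tnfrsf23, chosen after its values were seen, rose by 0.49 (SE 0.14), and reads of these similar genes may have been shared.

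Of 27 adaptors and ubiquitin genes of the receptor complexes, 7 were higher, 12 lower and 8 not called, with a median log2 fold change of -0.04. Birc2 (cIAP1), a ubiquitin ligase of the TNF receptor 1 complex, rose from 131 ± 3.05 (SD, n = 8) to 248 ± 14.5 (SD, n = 6) CPM (log2 fold change 0.92, SE 0.04, edgeR adjusted p 6.9e-13). Its relative Birc3 (cIAP2) fell by 0.20 (SE 0.08, edgeR adjusted p 0.0326), with overlapping groups. Traf2, which brings both to the receptor, rose by 0.35 (SE 0.05), and Ptpn13, a phosphatase known to bind the tail of human Fas, rose by 0.95 (SE 0.07). Tradd, the adaptor of TNF receptor 1, fell by 0.30 (SE 0.06), from 18.5 to 15.05 CPM, and the kinase Ripk1 fell by 0.29 (SE 0.04), from 121 to 98.4 CPM. Also lower were Madd, a death domain protein that binds TNF receptor 1 (337 to 204 CPM), Rnf31, the catalytic subunit of the linear ubiquitin ligase (85.6 to 67.2 CPM), and Casp8ap2, named for its binding to caspase-8 (114 to 93.2 CPM). Tnfaip3 (A20), an NF-κB target that restrains this signal, was at 208 ± 83.0 (SD, n = 8) and 357 ± 79.1 (SD, n = 6) CPM, a log2 fold change of 0.78 (SE 0.24, edgeR adjusted p 0.0115) with overlap between the groups.

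Of 6 necroptosis genes, 2 were higher, 3 lower and 1 not called. Mlkl, the protein that opens the membrane, rose from 2.55 ± 0.549 (SD, n = 8) to 3.94 ± 0.535 (SD, n = 6) CPM (log2 fold change 0.62, SE 0.15, edgeR adjusted p 0.0016), with overlap. Its kinase Ripk3 fell from 51.7 to 44.3 CPM, by 0.23 (SE 0.05) on the log2 scale. Zbp1, a nucleic acid sensor that can act on Ripk3, rose by 0.75 (SE 0.08), and Spata2 and Pgam5 fell by 0.30 (SE 0.05) and 0.25 (SE 0.04).

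Among the other caspases, Casp1, Casp4 and Casp6 were called higher. The larger changes were in the inflammatory caspases: Casp1 rose from 19.6 ± 2.16 (SD, n = 8) to 44.8 ± 6.92 (SD, n = 6) CPM (log2 fold change 1.19, SE 0.10) and Casp4 from 18.5 ± 1.16 to 31.9 ± 6.78 CPM (0.79, SE 0.10). Casp6, usually counted among the executioners, rose by 0.18 (SE 0.06), with overlap between the groups. Casp9, the initiator of the mitochondrial route, was not called (log2 difference -0.11, edgeR adjusted p 0.138).

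Of 15 genes of execution and the mitochondrial link, 3 were higher, 6 lower and 6 not called. Bid, the caspase-8 substrate that reaches mitochondria, was not called (log2 difference 0.12, edgeR adjusted p 0.128), and neither was Apaf1, the scaffold that activates caspase-9 (-0.10, edgeR adjusted p 0.0781). Cycs (cytochrome c) rose by 0.43 (SE 0.07) and Xiap, an inhibitor of caspases, by 0.38 (SE 0.07), from 179 to 233 CPM. Dffb and Dffa, the nuclease that cuts DNA in apoptosis and its inhibitor, fell by 0.69 (SE 0.06) and 0.32 (SE 0.06), and Parp1, a caspase substrate, fell by 0.33 (SE 0.04). Dfna5 (gasdermin E), a pore protein activated by caspase cleavage, rose by 1.99 (SE 0.25) from a very low level of 0.410 to 1.64 CPM.

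**Figure D3:**
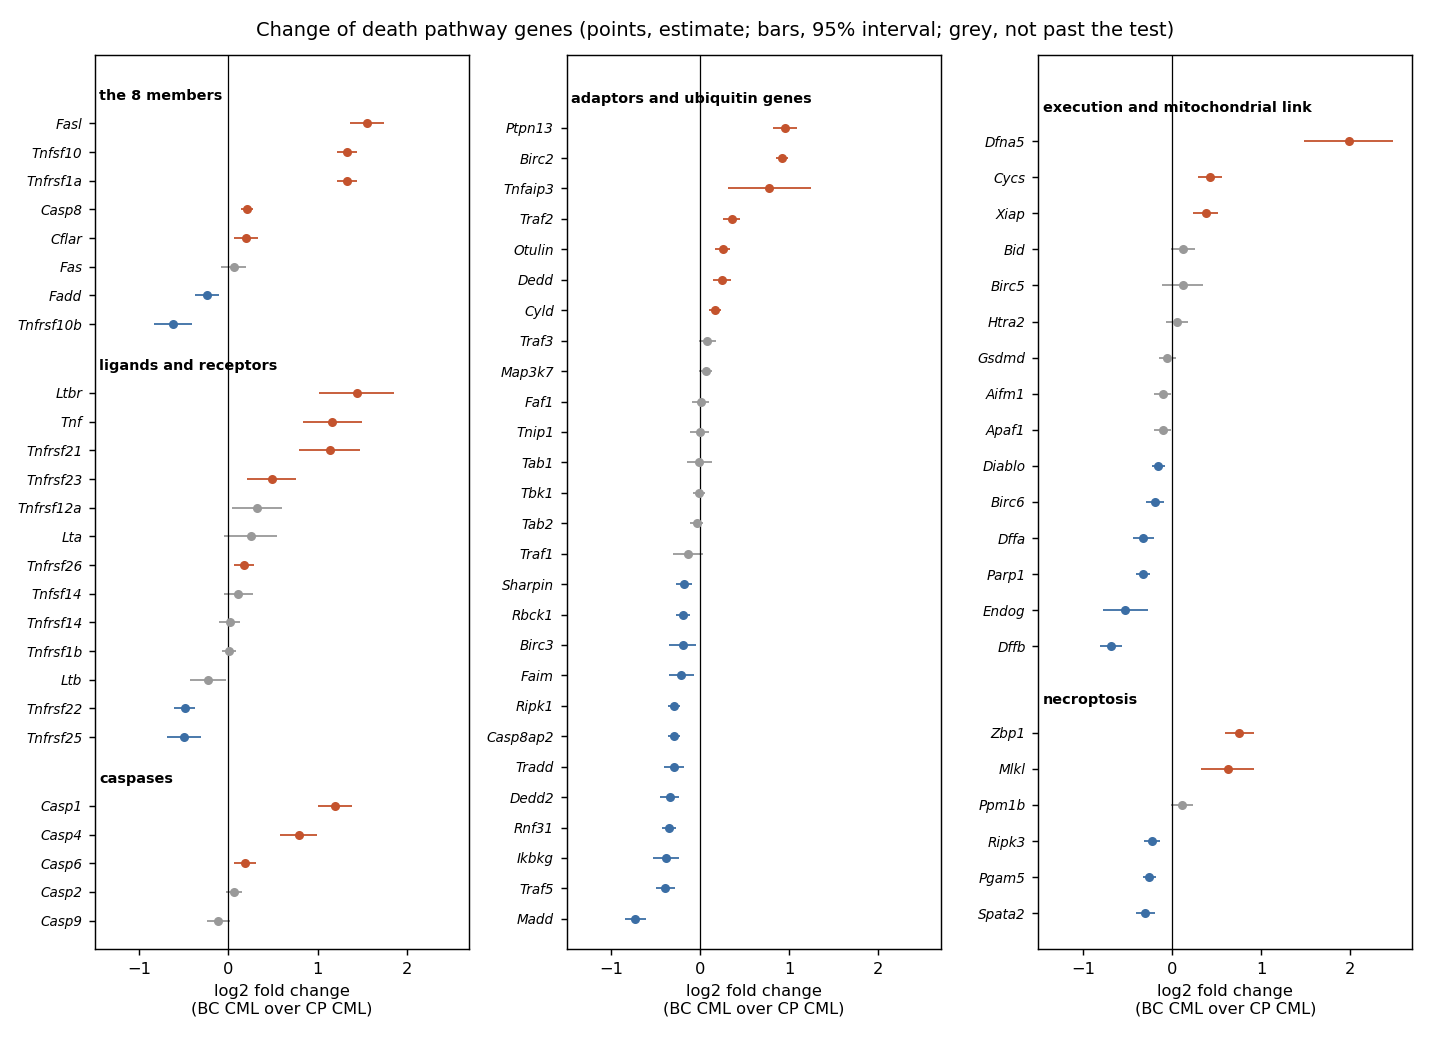
Log2 fold change of BC CML over CP CML (horizontal axes) for the 8 members and the reported genes of 5 other lists, with 95% intervals. Orange marks genes called higher in BC CML, blue lower, grey not called: both colours occur among the drawn genes of every list but the caspases, and Fasl, Tnfsf10 and Tnfrsf1a lie at 1.33 or above.

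Cell type markers moved along with these genes. The sorted cells expressed T cell markers strongly, the sum of 7 markers being between 2505 and 2887 CPM in CP CML and between 2929 and 3256 CPM in BC CML, with 4 of 7 called higher. Of 8 naive T cell markers 7 were lower and 1 higher (sum 5729 to 7157 and 3517 to 4913 CPM), and of 10 effector or memory markers 8 were higher and 1 lower (980 to 1183 and 1677 to 2434 CPM). Of 5 tested NK cell markers all 5 were higher, with a sum between 75.2 and 102 CPM in CP CML and between 206 and 430.4 CPM in BC CML. The defining NK gene Ncr1 was at 2.61 ± 0.953 (SD, n = 8) and 10.5 ± 6.00 (SD, n = 6) CPM, Klrb1c at 49.7 ± 6.69 and 146 ± 40.8 CPM, and Klra4 had 0 reads in all mice. Klra8 differed most of the NK markers, with 0 to 5 reads per mouse in CP CML and 185 to 326 in BC CML. Of 12 myeloid markers 11 were higher and none lower (67.7 to 449 and 548 to 1377 CPM), and of 8 B cell markers 7 were higher and none lower (40.7 to 153 and 75.7 to 447 CPM, overlapping). Of the erythroid, basophil or mast cell, and dendritic markers tested, 1 of 4, 1 of 4 and 0 of 3 were higher and none lower, and the 1 platelet marker tested was lower. In these bulk samples fewer cells of a type and less RNA per cell cannot be told apart.

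**Figure D4:**
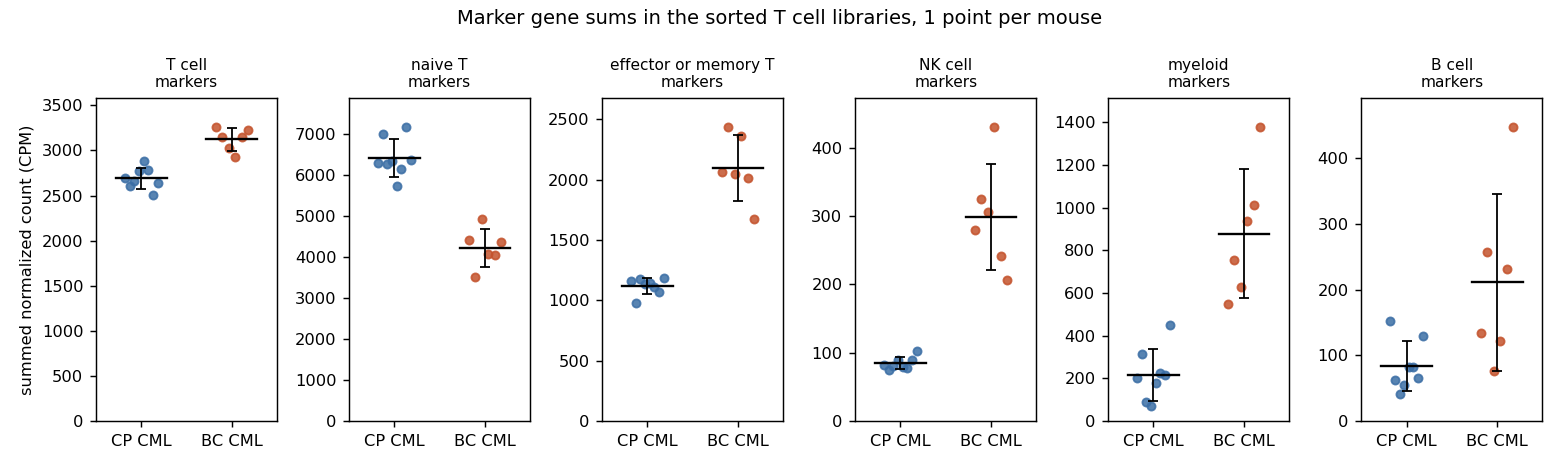
Summed CPM of the markers of 6 cell types (vertical axes from 0) in each mouse, with mean and 1 SD. Effector or memory, NK and myeloid marker sums of the BC CML mice lie above all CP CML mice, naive marker sums lie below them, and B cell sums overlap.

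Fasl and Tnfsf10 are expressed by effector T cells and NK cells, and Tnfrsf1a by myeloid cells, so the marker levels stand beside these results. Within CP CML, the mouse with the fewest myeloid transcripts (replicate 4, 67.7 CPM) had 39.7 CPM of Tnfrsf1a and the one with the most (replicate 8, 449 CPM) had 42.5 CPM. In BC CML the corresponding mice (replicate 1, 548 CPM, and replicate 6, 1377 CPM) had 97.2 and 110.3 CPM. In BC CML, from the lowest to the highest NK sum (replicates 6, 5, 1, 3, 2 and 4), Fasl was at 39.8, 36.4, 49.4, 43.1, 54.1 and 57.6 CPM. By effector or memory sum, the order of the BC CML mice was replicates 6, 5, 3, 1, 4 and 2. In that order Fasl was at 39.8, 36.4, 43.1, 49.4, 57.6 and 54.1 CPM. Tnfsf10 was at 172, 169, 186, 191, 209 and 226 CPM in the same order. In CP CML, the mouse with the lowest Fasl (replicate 7) had an NK sum of 89.2 CPM and the one with the highest Fasl (replicate 6) 76.8 CPM. By NK sum and by effector or memory sum alike, the lowest CP CML mouse was replicate 2 and the highest replicate 8. These mice had 14.6 and 16.9 CPM of Fasl, and 72.2 and 73.6 CPM of Tnfsf10. Whether levels followed marker sums among mice was not tested.

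The groups were also compared with the mean log2 CPM of a marker list as a covariate, and the edgeR adjusted p stands in brackets. With the myeloid score, 5 of the 8 genes were still called, and Tnfrsf1a stayed 1.23 higher on the log2 scale (5.95e-08), Tnfsf10 1.42 (1.11e-08) and Fasl 1.62 (2.71e-06). With the naive T cell score, 4 were called, Fasl at 1.11 (0.0104), Tnfsf10 at 1.03 (0.000181), Tnfrsf1a at 0.89 (0.000168) and Tnfrsf10b at -1.02 (0.0366). With the effector or memory score, a choice made after the data had been seen, the same 4 were called, Fasl at 0.88 (0.0022). With the NK cell score, also chosen after the data had been seen, Tnfrsf1a alone was called, at 1.08 (0.0464), and the adjusted differences of Fasl, 0.35 (0.706), and Tnfsf10, 0.65 (0.145), did not pass. With Klra8 left out of the NK cell score, again after the data had been seen, Tnfrsf1a at 1.101 (0.0013) and Tnfsf10 at 0.83 (0.0027) were called, and Fasl at 0.62 (0.126) was not. Of all 12248 genes, 5054 were called with the myeloid score, 1991 with the naive T cell score, 2899 with the effector or memory score and 242 with the NK cell score, or 1113 without Klra8 in it. The marker sums of the groups do not overlap for any of these 4 lists. The scores themselves correlated with the group at 0.81 (myeloid), -0.94 (naive T cell), 0.92 (effector or memory) and 0.98 (NK cell). In each of these fits the score and the genotype are therefore hard to tell apart, most with the NK cell score and least with the myeloid score. The part of changed cell composition in the results was not tested beyond these fits.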

How the data were processed

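The authors trimmed adapters with Trimmomatic and polyA tails with another tool, aligned the reads to mm10 with STAR 2.6.0, counted them per gene with HTSeq 0.11.1, and deposited raw counts of 24091 genes, unnormalized, with gene positions and lengths. The annotation and strand setting of the counting are not given in the sources used here. Columns were matched to the 14 mice by name. Spleen T cells are described only as sorted.

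In R 4.3.3, edgeR 4.0.16 (with limma 3.58.1) was run on the counts: filterByExpr (12248 genes kept), TMM, and the robust quasi-likelihood test of BC CML against CP CML, without covariate, adjusted by Benjamini-Hochberg at 0.05. The standard error was derived from the fold change and the F statistic. Covariate scores were mean log2 CPM (prior count 2). Simulated counts with known changes were used to check the scripts. DESeq2 1.42.0 was an alternative. Depth was between 15703702 and 19914531 reads per mouse. Replicate pairs differed by more than sampling noise (chi-square per degree of freedom from 2.99 to 21.6), so all 14 were counted. Each library is from its own mouse.

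The 8 members and the gene and marker lists were chosen with earlier results of these data known. Named pathway genes were the 3 called genes of lowest adjusted p in each direction per list, plus Tnf, Tnfrsf1b and 15 other core genes whatever their values. 3′UTRs came from GENCODE vM21, microRNAs and start regions from RefSeq. 9 of the 77 listed genes did not pass the filter (Tnfsf15, Tnfrsf11b, Tnfsf12, Eda2r, Ngfr, Casp12, Casp14, Cidea and Cideb). Some items of the lists are counted but not reported here by name.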

Additional observations from a re-analysis of the deposited data

Results flagged for a closer look

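Among 90 groups of values examined (total reads, the 8 genes, the other pathway genes named and the Cflar to Casp8 ratio, in each group of mice), 4 had a highest or lowest mouse far from the rest by Dixon's criterion, where chance gives about 4.5, and none of the 16 member groups was among them. BC CML replicate 2 had 16145537 reads in total, against 18319039 in the next mouse of its group. Casp1 in BC CML replicate 3 was at 31.3 CPM, against 44.2 in the next mouse. Cycs in BC CML replicate 5 was at 67.9 CPM, against 54.7, and Spata2 in BC CML replicate 6 was at 31.7 CPM, against 27.9.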

How the results depend on the processing

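DESeq2, the likelihood ratio test of edgeR, scaling by RLE or by library size, and both other filters (none, or over 1 CPM in 6 samples) left the same 7 members called, in the same directions, and Fas was not called under any alternative (0.04 to 0.42 on the log2 scale, lowest adjusted p 0.142). Tnfrsf1a was called in all 12 alternatives (0.89 to 1.34). The mice of equal number came from different animals and their deviations did not go together (mean correlation over 6 pairs -0.024), so the replicate numbers do not pair them; with the replicate block over 12 mice 6 members were called, and Cflar was at 0.17 (adjusted p 0.0976). With 1 mouse left out at a time, 7 members were called in each of 14 fits, all genes called between 7721 and 7966 (7986 with all mice) and other pathway genes called between 43 and 46 (44 with all mice). Over these fits Fas ranged from 0.0003 to 0.10, Fasl from 1.48 to 1.61, Tnfsf10 from 1.28 to 1.36, Tnfrsf1a from 1.29 to 1.36, Tnfrsf10b from -0.69 to -0.58, Casp8 from 0.19 to 0.23, Cflar from 0.16 to 0.23 and Fadd from -0.28 to -0.22.

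Scores of cell type markers as covariates changed more, and since these scores differ between the groups, the cause was not tested. The values are log2 fold changes, with the adjusted p in brackets. With the myeloid score 5 members, 5054 genes overall and 30 other pathway genes were called, and Cflar at 0.23 (0.132) and Fadd at -0.23 (0.133) did not pass. With the naive T score 4 members, 1991 genes and 10 pathway genes were called; Casp8 was at 0.11 (0.506), Cflar reversed to -0.085 (0.803) and Fadd was at -0.050 (0.901). With the effector or memory score, added after seeing the data, 4 members, 2899 genes and 18 pathway genes were called, with Casp8 at 0.10 (0.433), Cflar reversed to -0.086 (0.740) and Fadd at -0.14 (0.612). With the NK cell score, also added after seeing the data, 1 member, 242 genes and 1 pathway gene were called, with Fasl at 0.35 (0.706), Tnfsf10 at 0.65 (0.145), Tnfrsf10b at -0.84 (0.471), Casp8 at 0.21 (0.598), Cflar reversed to -0.27 (0.726) and Fadd reversed to 0.067 (0.946). With Klra8 left out of that score, also after seeing the data, 2 members, 1113 genes and 3 pathway genes were called, with Tnfsf10 called at 0.83 (0.0027), Fasl at 0.62 (0.126), Tnfrsf10b at -0.80 (0.201), Casp8 at 0.16 (0.453), Cflar reversed to -0.12 (0.793) and Fadd at -0.11 (0.821). Only Tnfrsf1a thus kept its call with every score. The Casp8, Cflar and Fadd calls, changes below 0.3 on the log2 scale, were lost with the naive T, effector or memory and NK scores. The calls of Fasl, Tnfsf10 and Tnfrsf10b ended only with the NK cell score, for Tnfsf10 only with Klra8 in it. Depth limits Tnfrsf10b most, with 87 to 189 reads per mouse.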
